A study of Mus musculus with 20 samples.

Results

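The major histocompatibility complex of the mouse lies on chromosome 17, and the interval described here, chr17:33900001-37300000 of the mm9 genome, is 3.4 Mb long. Its members were chosen by position and coverage only: every CpG cytosine in the interval, each strand on its own, with at least 10 reads in at least 4 of the 5 libraries of each of 4 groups. Of 12898 cytosines listed there in at least 1 library, 7953 met this rule, out of 1730534 on chromosomes 1 to 19. They were used singly and in fixed windows of 1 kb. Of the 3400 windows in the interval, 507 held at least 3 member cytosines (7664 cytosines in all), out of 127276 such windows on chromosomes 1 to 19.

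The series profiled CpG methylation by enhanced reduced representation bisulfite sequencing (ERRBS), an assay that reads short, CpG-rich restriction fragments, in promyelocytes of mice that carry the PML-RARa transgene and of Wild-Type (WT) mice without it. PML-RARa is the fusion of the promyelocytic leukemia protein with the retinoic acid receptor alpha that is found in acute promyelocytic leukemia. The 4 groups were late promyelocytes (CD34−) of PML-RARa mice, late promyelocytes of WT mice, early promyelocytes (CD34+) of PML-RARa mice and early promyelocytes of WT mice, with 5 libraries each. All mice had the FVB/n background. The labels give neither the age of the mice nor the promoter that drives the transgene, nor do they say that each library came from its own mouse, so every p-value below measures the spread between libraries, which may be partly technical. Libraries are named by the numbers of their titles. These run in couples, a CD34+ library and then a CD34− library of 1 genotype with the same mark (#1 or #2), and what a couple or a mark stands for is not given. Unless said otherwise, libraries were compared as independent, which those of a couple may not be. The sorted cell type was not checked here by the methylation of any gene.

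The major histocompatibility complex holds the genes whose products show peptides to T cells. Class I molecules, such as H2-K and H2-D, sit on nearly all nucleated cells and present peptides made inside the cell to CD8 T cells, whereas class II molecules are made mostly by professional antigen-presenting cells and present peptides taken up from outside to CD4 T cells. Between these gene groups lies the class III region, with genes of complement, of the tumour necrosis factor family and of many unrelated functions. Methylation of a CpG-rich promoter usually goes with a silent gene, and CpG-rich promoters of active genes are usually unmethylated.

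The files of this series name no gene. RefSeq promoter sequences (GRCm38.p6, 250 bases before to 50 bases after each start) were therefore placed on mm9 by their spacing of CpGs: all listed cytosines inside the promoter had to fall on its CpGs, with at least 6 CpGs matched and no equally good place on chromosome 17. This placed 98 promoters of 74 genes in the interval, and 92 of them, of 69 genes, held at least 3 member cytosines and have a value. Genes are named by these placed starts, and distances are from the start along the gene's strand. Which exon or intron a position falls in is not given, since no annotation of mm9 was used here.

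The promoters of 5 of these genes are printed because the results below turn on them: the class I genes H2-K1, H2-D1 and H2-Q6, the sialidase gene Neu1, and Slc44a4, a choline transporter gene whose start was the most methylated one measured. Each runs 5′ to 3′ along the gene's strand, is credited to RefSeq GRCm38.p6, and shows in capitals the CpGs with a member cytosine. On mm9 they lie at chr17:34137243-34137542 (H2-K1, minus strand), chr17:35399789-35400088 (H2-D1, plus strand), chr17:35561545-35561844 (H2-Q6, plus strand), chr17:35067948-35068247 (Neu1, plus strand) and chr17:35051161-35051460 (Slc44a4, plus strand).
H2-K1: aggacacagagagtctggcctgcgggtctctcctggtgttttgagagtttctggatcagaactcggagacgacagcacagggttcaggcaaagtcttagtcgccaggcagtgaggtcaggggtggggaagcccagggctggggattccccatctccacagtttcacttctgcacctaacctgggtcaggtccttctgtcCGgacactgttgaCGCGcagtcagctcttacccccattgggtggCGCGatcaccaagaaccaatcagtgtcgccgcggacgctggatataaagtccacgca
H2-D1: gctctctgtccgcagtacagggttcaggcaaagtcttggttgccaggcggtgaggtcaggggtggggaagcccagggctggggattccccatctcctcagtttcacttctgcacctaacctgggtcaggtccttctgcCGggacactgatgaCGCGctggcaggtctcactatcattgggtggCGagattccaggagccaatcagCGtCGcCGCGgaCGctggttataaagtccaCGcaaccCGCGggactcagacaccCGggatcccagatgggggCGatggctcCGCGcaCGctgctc
H2-Q6: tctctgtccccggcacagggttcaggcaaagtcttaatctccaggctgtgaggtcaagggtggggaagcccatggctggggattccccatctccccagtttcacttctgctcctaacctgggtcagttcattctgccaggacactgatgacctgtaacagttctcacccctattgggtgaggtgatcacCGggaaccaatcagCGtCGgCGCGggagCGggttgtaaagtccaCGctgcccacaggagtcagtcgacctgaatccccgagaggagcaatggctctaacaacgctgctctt
Neu1: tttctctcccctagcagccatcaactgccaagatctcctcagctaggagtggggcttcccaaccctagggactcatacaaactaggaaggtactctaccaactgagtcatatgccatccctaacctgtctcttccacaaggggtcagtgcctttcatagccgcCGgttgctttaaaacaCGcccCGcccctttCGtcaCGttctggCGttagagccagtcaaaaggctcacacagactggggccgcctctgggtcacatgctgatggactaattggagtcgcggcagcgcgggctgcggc
Slc44a4: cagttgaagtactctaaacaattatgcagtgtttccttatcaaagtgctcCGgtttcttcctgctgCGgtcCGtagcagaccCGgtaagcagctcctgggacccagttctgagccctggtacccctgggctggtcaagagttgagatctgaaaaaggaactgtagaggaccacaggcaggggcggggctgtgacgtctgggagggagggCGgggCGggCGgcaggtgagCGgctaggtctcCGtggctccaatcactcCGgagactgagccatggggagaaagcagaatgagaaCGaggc
ERRBS read 5 of the 14 CpGs of the H2-K1 promoter, 17 of 19 at H2-D1, 7 of 11 at H2-Q6, 6 of 13 at Neu1 and 11 of 13 at Slc44a4. All 3 class I promoters held GGG, any 2 bases and TTCCC in a row, the form of a site for NF-kappaB, a transcription factor of inflammation, beginning at position -111 from the start in H2-K1, -171 in H2-D1 and -173 in H2-Q6. They also held TTTC, any 2 bases and TTCT in a row, the form of a site for interferon response factors, at -90, -150 and -152. TGACGC, a form of the cyclic AMP response element, stood at -41 in H2-K1 and at -101 in H2-D1, and was not in the printed H2-Q6 window. On either strand, the NF-kappaB form was in 1.75% of all 32851 RefSeq promoters of this length and in 6 of 25 class I starts, the interferon form was in 3.02% and 9 of 25, and TGACGC was in 7.40% and 5 of 25. Neu1 also matched the NF-kappaB form, at -200, and Slc44a4 matched none of the 3 motifs. The motifs were searched after the sequences had been seen, they do not overlap in these promoters, and a match is a description of letters only. The measured CpGs of H2-K1 all stood after both the NF-kappaB form and the interferon form, and 1 of them lay inside the TGACGC match.

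Methylation across the interval was split: windows with many member cytosines mostly had almost none, and those with few often had much. Averaged over all 20 libraries, 184 of the 507 windows (36.3%) were low, below 20%, 114 (22.5%) were intermediate, and 209 (41.2%) were high, above 80%. The windows of the rest of chromosomes 1 to 19 were low in 23.9%, intermediate in 17.8% and high in 58.3%, a difference that was not tested. The split followed the number of cytosines read. The 302 windows with 3 to 9 member cytosines had a median level of 84.5%, the 137 with 10 to 29 had one of 29.8%, and the 68 with 30 or more had one of 0.166%, and 65 of those 68 were low. The median window held 7 member cytosines in the interval and 5 elsewhere. This number depends on which CpGs were read as well as on CpG density, which was not measured. A window's level here is the share of methylated reads among all reads over its member cytosines.

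Along the chromosome, mean levels over blocks of 200 kb lay between 13.3% and 87.9%. The block with the lowest mean, 13.3% over 638 cytosines, was chr17:35300001-35500000, which holds the H2-D1 start. The 3 most methylated blocks were thinly read: 87.9% over 25 cytosines at chr17:36500001-36700000, 69.3% over 11 cytosines in the block after it, and 62.8% over 61 cytosines at chr17:34500001-34700000. The highest mean of the other blocks was 41.9%. The cytosines of a CpG on both strands were close, with a median difference of 0.186 points over 1621 CpGs, where a point is 1 percentage point of methylation. In 18 of these CpGs (1.11%) the strands differed by more than 30 points, against 1.69% of CpGs on chromosomes 1 to 19 outside the interval.

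**Figure D1:**
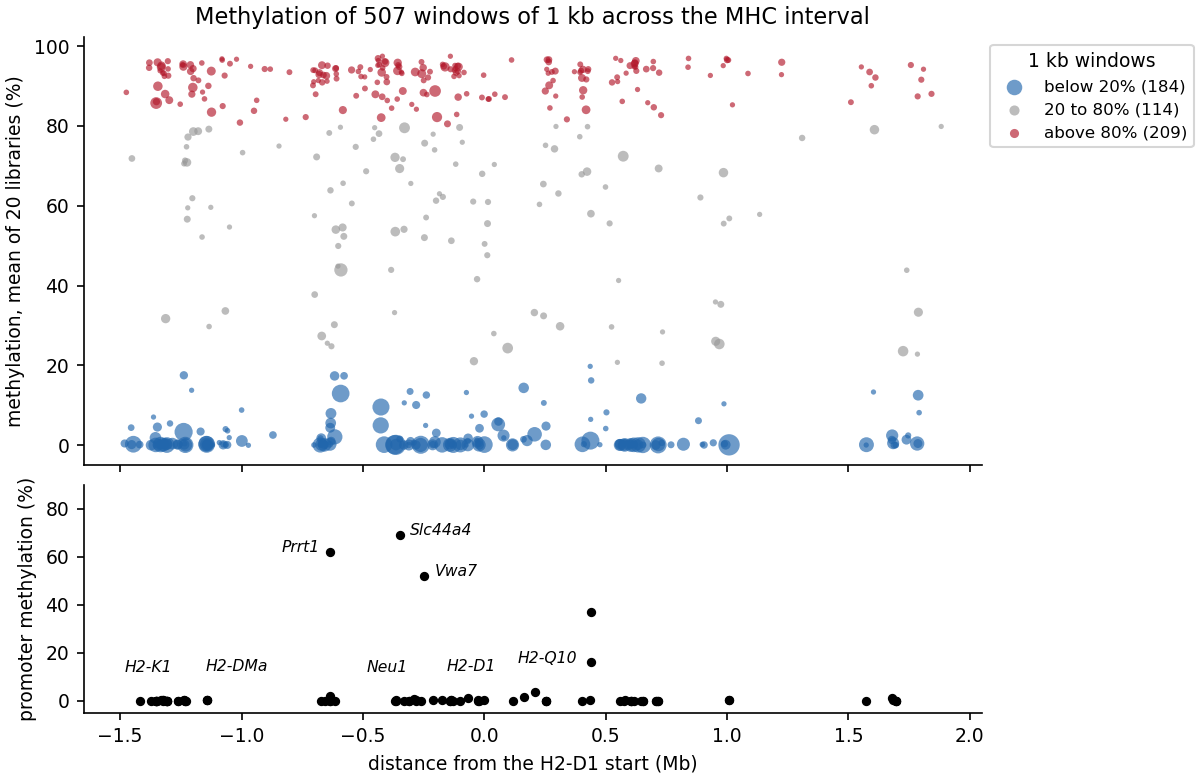
Mean methylation over all 20 libraries in percent (y axis) against distance in Mb from the H2-D1 start (x axis), with the windows in the upper panel, coloured by level class and drawn larger where they hold more cytosines, and the placed promoters in the lower panel. Low and high windows stand next to each other along most of the interval, and all but 5 of the 92 promoters lie below 5%.

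Nearly every promoter that could be read was unmethylated. RefSeq has 218 promoters between the first and the last placed one, and 98 were placed. Placement needed at least 6 matched CpGs, so CpG-poor promoters have no value here. Some of the promoters with a value overlap and share cytosines, so they are not independent. Of the 92 promoters, 87 were below 5% on average over the 20 libraries, with a median of 0.0957% among those 87, and 82 of them were below 5% in every library. One promoter, of Gm4577, had 16.3%, 4 lay between 20% and 80%, and none was above 80%. The classical class I genes had 0.058% (H2-K1) and 0.151% (H2-D1). Among the class I genes of the Q region, H2-Q4 had 0.047%, H2-Q6 1.499% and H2-Q10 3.47%, and the last 2 reached 6.29% and 6.80% in their highest library. Reads from class I genes carry a limit of their own: the copies are near identical and FVB/n carries other alleles than the C57BL/6 genome of mm9, so reads of one copy may have been placed on another.

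Of the class II genes, only H2-DMa had a value, 0.144%; its product helps to load peptides onto class II molecules. Ltb, which encodes lymphotoxin beta of the tumour necrosis factor family, had 1.06%. The nuclear genes read were all near 0. Ring1, of the Polycomb repressive complex, had 0.242%, and Rxrb, a partner receptor of the retinoic acid receptors, had 0.066% and 0.097% at its 2 placed starts. The 2 starts of Ehmt2, a histone H3 lysine 9 methyltransferase, had 0.038% and 0.146%, those of Brd2, a bromodomain protein that binds acetylated histones, 0.546% and 0.138%, and the start of the homeobox gene Pbx2 had 0.083%. The starts of Daxx, a histone H3.3 chaperone that binds the PML protein, lay between 0.0947% and 0.112%. Outside these roles, Hspa1l (a heat shock protein) had 0.629%, Bag6 (a chaperone of membrane proteins) 0.124%, Ier3 (an immediate early gene) 0.018%, Tubb5 (a beta tubulin) 0.069% and Mdc1 (a DNA damage mediator) 0.141%. These are 18 of the 62 genes listed by role; the others, among them H2-Ab1, H2-Aa, Tap1, Psmb8, C4b, Tnf and Pou5f1, have no value here.

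The 4 promoters of intermediate level were those of Slc44a4 (68.9%), Prrt1 (61.9%), Vwa7 (52.0%) and 1 start of Ddr1 (36.8%), a collagen receptor gene. Slc44a4 had 65.2% ± 7.98 in PML-RARa CD34− cells and 72.4% ± 2.85 in WT CD34− cells, and 69.2% ± 5.42 in PML-RARa CD34+ cells and 68.9% ± 1.90 in WT CD34+ cells (SD, n = 5 each). Prrt1 had 71.3% ± 10.0 in PML-RARa CD34− cells and 56.9% ± 17.4 in WT CD34− cells, and 58.4% ± 11.6 in PML-RARa CD34+ cells and 61.2% ± 16.2 in WT CD34+ cells. Both differences between genotypes in CD34− cells were smaller than the larger of the pair's SDs.

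Most promoters had little room to differ between groups, since 87 of the 92 were below 5%. The group means of 86 of the 92 promoters differed by less than 1 point between PML-RARa and WT CD34− cells, as did 85 of 92 in CD34+ cells. Between CD34− and CD34+ cells, 83 of 92 differed by less than 1 point in PML-RARa mice and 86 of 92 in WT mice. Between genotypes, 2 promoters differed by 5 points or more in each fraction. Between fractions, 3 did so in PML-RARa mice and 1 in WT mice. The largest differences in size were 14.4 points at Prrt1 between PML-RARa and WT CD34− cells, -7.61 points at Gm4577 between PML-RARa and WT CD34+ cells, 12.9 points at Prrt1 between CD34− and CD34+ cells of PML-RARa mice, and 5.52 points at Vwa7 between CD34− and CD34+ cells of WT mice. These are descriptions with no test of their own. Tests were made on windows.

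Over the whole interval, mean methylation per library lay between 24.2% and 25.2%, against 29.3% to 30.1% over the rest of chromosomes 1 to 19. The mean is unweighted over the 5583 member cytosines read in all 20 libraries. The means were 24.3, 24.2, 24.2, 24.3 and 24.8% in PML-RARa CD34− libraries (mean 24.36% ± 0.245, SD, n = 5), and WT CD34− libraries had 24.8, 24.5, 24.5, 24.5 and 24.9% (24.62% ± 0.188). In CD34+ cells, PML-RARa libraries had 24.6, 24.8, 24.8, 24.5 and 24.8% (24.73% ± 0.163), and WT libraries had 25.1, 24.9, 24.8, 24.8 and 25.2% (24.96% ± 0.194). The groups overlapped in every comparison. PML-RARa minus WT was -0.258 points in CD34− cells and -0.238 points in CD34+ cells, and by exact permutation, two-sided and adjusted over 4 comparisons, both had adjusted p = 0.135. CD34− minus CD34+ was -0.367 points in PML-RARa mice and -0.347 points in WT mice, both with adjusted p = 0.0794 in the same permutation test. Within the flowcells that held libraries of both groups, these 4 differences lay between -0.510 and -0.128 points. None of the 4 passed the threshold of 0.05 in this test of unpaired libraries. A test by couples of title numbers, over both genotypes, was added after the data had been seen. There the CD34− library had the lower interval mean in all 10 couples (adjusted p = 0.00391 over 4 such tests, exact sign flips). With the rest of chromosomes 1 to 19 subtracted, it was lower in 5 of 10 (p = 0.885, exact sign flips).

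Divided by level, the high windows differed most evenly. In the 149 high windows read in all 20 libraries, PML-RARa CD34− libraries had 90.5, 90.6, 90.6, 90.9 and 91.3% and PML-RARa CD34+ libraries had 91.5, 92.2, 91.4, 91.8 and 91.4%. WT CD34− libraries had 92.0, 91.1, 91.3, 91.5 and 91.4% in these windows, and WT CD34+ libraries had 92.8, 92.3, 91.7, 92.1 and 92.5%. In PML-RARa mice every CD34− library was below every CD34+ library, whereas the other pairs of groups overlapped. The PML-RARa CD34− libraries were on flowcells A (3) and B (2), and the PML-RARa CD34+ libraries on B (3), C (1) and D (1). Fraction and flowcell can thus not be fully told apart in PML-RARa mice. CD34− minus CD34+ was -0.916 points in PML-RARa mice, with the smallest p that 5 against 5 libraries can give, 0.00794, and -0.822 points in WT mice, and PML-RARa minus WT was -0.705 points in CD34− cells. Each had adjusted p = 0.0476 over 12 class tests by exact permutation. PML-RARa minus WT in CD34+ cells was -0.611 points, with adjusted p = 0.0680 in this permutation test.

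The 93 intermediate windows had lower means in PML-RARa CD34− cells (55.5% ± 1.02) than in WT CD34− cells (57.4% ± 1.07), by -1.93 points, and than in PML-RARa CD34+ cells (57.6% ± 0.813), by -2.16 points (SD, n = 5 each, both adjusted p = 0.0476, exact permutation). The 171 low windows differed between PML-RARa CD34+ cells, 2.31% ± 0.183, and WT CD34+ cells, 2.68% ± 0.105, by -0.368 points (adjusted p = 0.0476, exact permutation). The other 6 class tests missed the threshold. All 6 of these calls were lost when the same class of windows on the rest of chromosomes 1 to 19 was subtracted in each library, when reads and not windows were weighted equally, and at a minimum of 20 reads. Within single flowcells the 6 differences lay between -2.68 and -0.279 points.

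**Figure D2:**
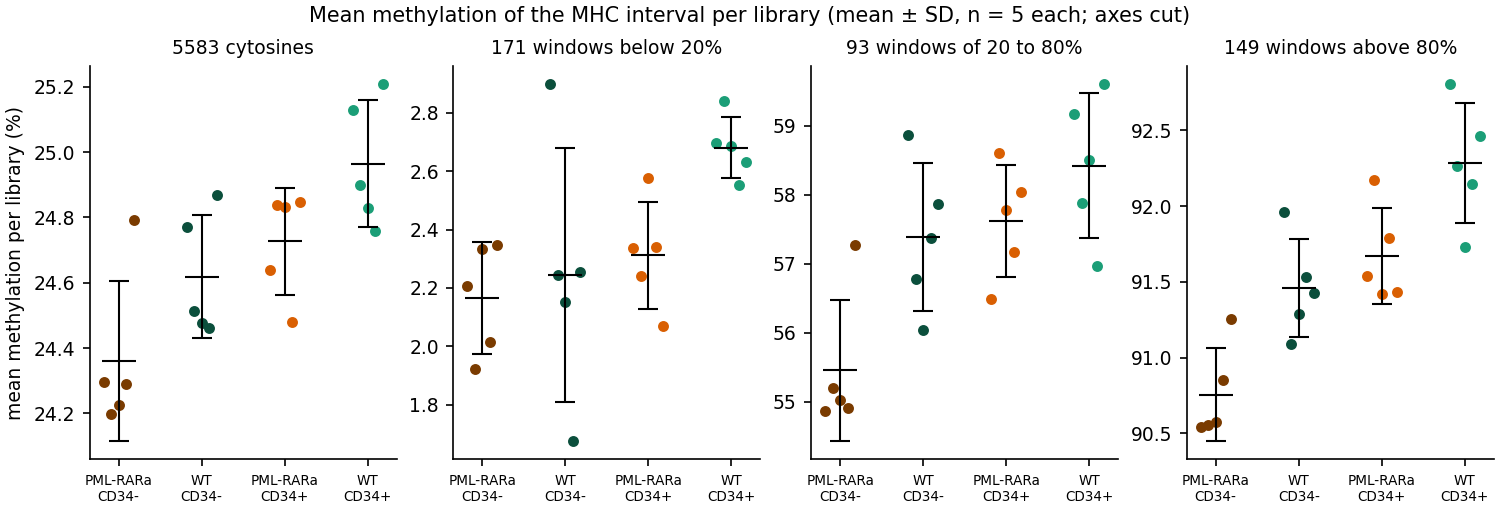
Mean methylation in percent (y axis) of the interval and of its low, intermediate and high windows in each of the 20 libraries (points) by group (x axis), with the group mean as a bar and whiskers of 1 SD, n = 5 per group. The axes do not start at 0 because the groups lie within a few points of each other: the interval means fall between 24.2% and 25.2%.

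Single windows were tested with a quasi-binomial logistic model of methylated and unmethylated reads over all 127276 windows, and called at a Benjamini-Hochberg adjusted p below 0.05 with at least 10 points between group means. PML-RARa minus WT gave 0 calls among the 507 member windows in CD34− cells and 0 in CD34+ cells, where the share called of all windows was 0.000786% in each. CD34− minus CD34+ gave 0 in PML-RARa mice, where 0.0574% of all windows were called, and 2 in WT mice, a share of 0.394% beside the 0.425% called of all windows. Both were lower in CD34− cells, as were 0.368% of all windows. The interaction, which asks whether the change between fractions differs between genotypes, gave 0, as over all windows (0%). Tests by limma on log odds called 0 member windows in each of these comparisons. How many of all windows limma called is not given here, so this 0 has no background beside it.

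Counts at an unadjusted p below 0.05 were near the background as well. For PML-RARa minus WT, 44 member windows (8.68%) had such a p in CD34− cells, beside 7.81% of all windows, and 28 (5.52%) had one in CD34+ cells, beside 4.22%. For CD34− minus CD34+, 53 (10.5%) had one in PML-RARa mice, beside 9.44%, and 26 (5.13%) in WT mice, beside 6.2%. For the interaction there were 25 (4.93%), beside 5.2%. Among them more were lower than higher: 29 lower and 15 higher, 20 and 8, 41 and 12, and 20 and 6, in the order of the first 4 comparisons above, with 11 and 14 for the interaction. The same split over all windows with such a p was not counted. Whatever their p, 51.1, 54.5, 56.2 and 61.5% of all windows were lower in these 4 comparisons, beside 57.6, 57.2, 58.2 and 57.8% of member windows. The median difference over member windows was -0.0582 points for PML-RARa minus WT in CD34− cells (all windows -0.0124), -0.0549 in CD34+ cells (all windows -0.0608), -0.0856 for CD34− minus CD34+ in PML-RARa mice (all windows -0.119) and -0.0834 in WT mice (all windows -0.366).

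**Figure D3:**
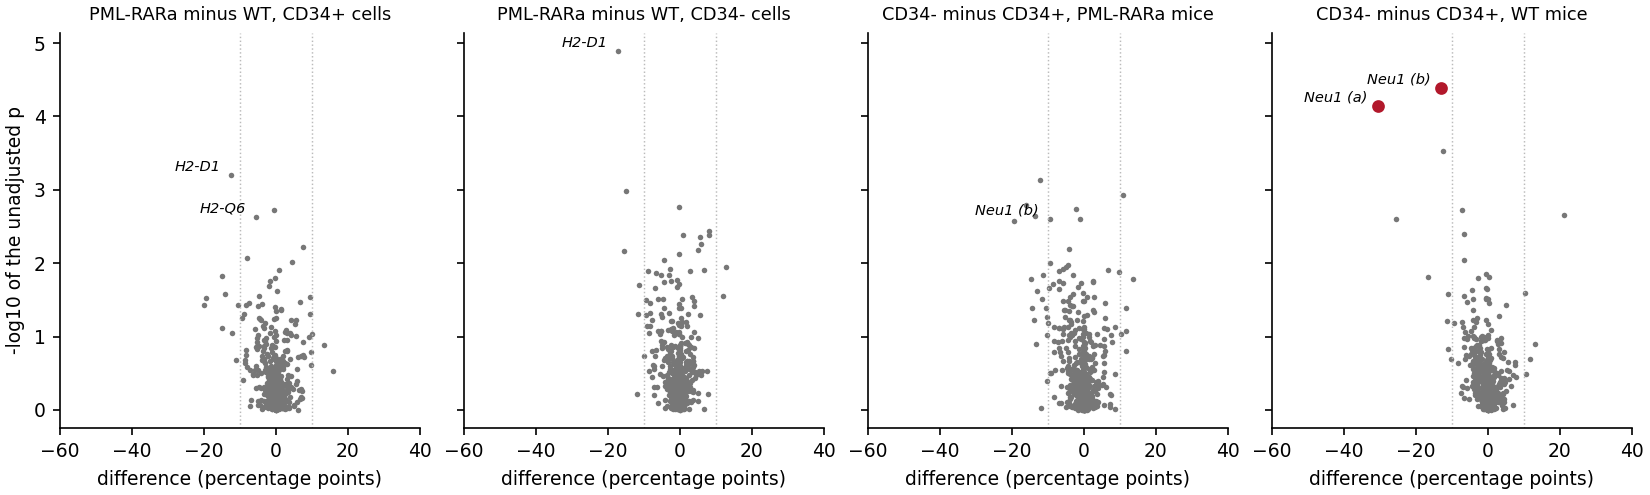
The unadjusted p of the quasi-binomial model as -log10 (y axis) against the difference between group means in percentage points (x axis) for each of the 507 member windows, 1 panel per comparison, with dotted lines at 10 points either side of 0 and called windows in red. Neu1 (a) is the window that begins 1803 bases after the Neu1 start and Neu1 (b) the one after it: both are called in WT mice, at -30.5 and -12.9 points, and the other panels hold no called window.

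Both called windows lie next to each other downstream of the start of Neu1, the gene of a lysosomal sialidase that trims sialic acid from glycoproteins, and methylation there was lower in late than in early promyelocytes of WT mice. The first, chr17:35070001-35071000, begins 1803 bases after the start and holds 3 member cytosines. Its level was 0, 0, 1.89, 0 and 0% in WT CD34− libraries, against 0, 58.3, 54.8, 15.8 and 25.4% in WT CD34+ libraries. All WT CD34+ libraries except replicate 1, which had 0% and overlaps the CD34− libraries, were above every CD34− library. The difference was -30.5 points (adjusted p = 0.0214, quasi-binomial model). Its depth was small, with a median of 75.5 reads per library over the 3 cytosines together.

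The second, chr17:35071001-35072000, holds 29 member cytosines and a median of 2050.5 reads per library. Its level was 69.2, 71.3, 77.5, 72.4 and 81.3% in WT CD34− libraries, against 84.2, 92.0, 89.5, 81.1 and 89.6% in WT CD34+ libraries. These overlapped by 1 library on each side, CD34− replicate 18 at 81.3% and CD34+ replicate 15 at 81.1%. The difference was -12.9 points (adjusted p = 0.0147, quasi-binomial model).

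The PML-RARa mice had differences of the same sign at both places. In the first window their CD34− libraries were all at 0%, against 19.1, 0, 29.97, 7.38 and 0% in their CD34+ libraries. In the second they had 71.9, 77.8, 66.7, 75.4 and 75.5% in CD34− libraries, against 84.8, 85.2, 83.7, 76.1 and 85.2% in CD34+ libraries, where again 1 library on each side overlapped. Neither window was called in PML-RARa mice, and no interaction was called, so that a difference between the genotypes in this change was not shown. With both genotypes in 1 term for the fraction, a model added after the data had been seen, the second window differed by -11.2 points (adjusted p = 0.00240, quasi-binomial model) and the first by -20.9 points (adjusted p = 0.00460, quasi-binomial model). That term called 3 member windows (0.592%) beside 0.617% of all windows.

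Within flowcells the WT difference in the first window was -12.7 points on flowcell A, -58.3 on B (1 library a side) and -34.3 on D, and in the second -10.03, -20.7 and -11.97 points. Both calls were lost in a fit of the 2 WT groups alone (adjusted p = 0.0681 and 0.0588, quasi-binomial model) and by limma (adjusted p = 0.291 and 0.195). They were also lost without WT CD34+ replicate 7 (adjusted p = 0.0704 and 0.0578, quasi-binomial model) and without WT CD34+ replicate 9 (0.176 and 0.0788). The first was lost without WT CD34− replicate 2 (0.113) or 8 (0.0714), and the second without WT CD34+ replicate 17 (0.0900) or WT CD34− replicate 16 (0.0623).

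Single cytosines along Neu1 are described next, and none of them was called between the fractions in WT or PML-RARa mice. At chr17:35070992, 2794 bases after the start, all WT CD34− libraries were at 0%, against a lowest of 0%, a median of 50% and a highest of 62.5% in WT CD34+ libraries. At chr17:35071234, 3036 bases after the start, WT CD34− libraries had 12.5% (lowest), 19.2% (median) and 48.4% (highest), against 35.2, 70.2 and 83.6% in the 4 WT CD34+ libraries that covered it, and PML-RARa CD34− libraries had 0, 3.66 and 21.5%, against 22.7, 37.8 and 84.1% in PML-RARa CD34+ libraries. The PML-RARa fractions did not overlap at this cytosine, and the WT fractions did. At chr17:35071264, 3066 bases after the start, levels averaged 88.3% in PML-RARa CD34− cells, 66.8% in WT CD34− cells, 82.4% in PML-RARa CD34+ cells and 84.4% in WT CD34+ cells, so that the mean was still lower in CD34− than in CD34+ cells of WT mice and was not lower in those of PML-RARa mice. The Neu1 promoter printed above was at 0.038%.

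**Figure D4:**
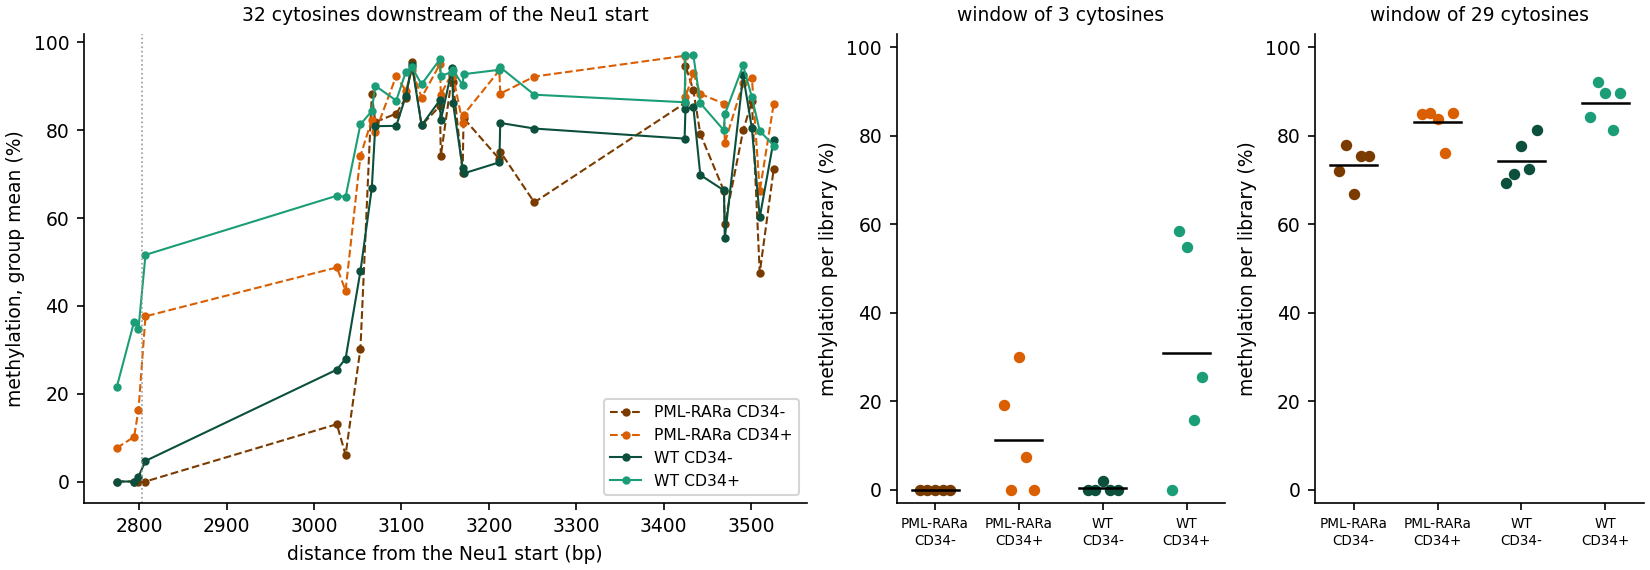
Methylation in percent (y axes): on the left the group means of the 32 member cytosines downstream of the Neu1 start against distance in bases (x axis, with a dotted line where the second window begins), and on the right the level of each library (points) in both windows, with the group mean as a bar, n = 5 per group. CD34− means are below CD34+ means in both genotypes at the 7 cytosines between 2774 and 3053 bases after the start. At 3066 bases the WT CD34− mean, 66.8%, is the lowest of the 4 groups.

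One more window was close to the threshold in this comparison. At chr17:34037001-34038000, between the placed starts of BC051226 and Kifc1 (a kinesin gene) and 8123 to 9122 bases from that of BC051226, WT CD34− libraries had 3.56, 0.826, 6.85, 0 and 0%, against 0, 23.0, 25.2, 10.7 and 14.7% in WT CD34+ libraries. The groups overlapped through WT CD34+ replicate 1. The difference was -12.5 points (adjusted p = 0.0571, quasi-binomial model, and 0.0145 to 1.00 over the alternatives tried). In PML-RARa mice, CD34− libraries had 0, 0.426, 0, 0 and 0%, against 21.4, 0, 8.55 and 19.2% in the 4 CD34+ libraries with a value, a difference of -12.2 points (adjusted p = 0.170, quasi-binomial model). With the fraction as 1 term over both genotypes it was -12.3 points (adjusted p = 0.00403, quasi-binomial model) and made up, with both Neu1 windows, the 3 windows called by that term.

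Other windows with small p-values for CD34− minus CD34+ in WT mice were not called. At chr17:35370001-35371000, 1731 bases after the start of Nfkbil1, a gene named for its likeness to inhibitors of NF-kappaB, WT CD34− libraries had 44.4, 31.9, 37.6, 17.2 and 31.6%, against 78.7, 59.8, 57.4, 42.3 and 52.1% in WT CD34+ libraries. These overlapped, with CD34− replicate 2 above CD34+ replicate 15, and the difference was -25.5 points (adjusted p = 0.239, quasi-binomial model). At chr17:35309001-35310000, at -8178 to -7179 from the start of Prrc2a, the difference had the other sign: 94.3, 87.0, 77.2, 87.3 and 85.8% in WT CD34− libraries, against 33.7, 75.1, 64.5, 74.0 and 78.7% in WT CD34+ libraries, 21.1 points (adjusted p = 0.226, quasi-binomial model).

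A single cytosine, chr17:34998009 on the minus strand, was called for CD34− minus CD34+ in PML-RARa mice, out of 7953 members, where 0.00196% of all cytosines were called and 0.00168% were called as lower. Its levels in PML-RARa CD34− libraries were 72.9% (lowest), 77.8% (median) and 100% (highest), against 95.9, 99.3 and 100% in PML-RARa CD34+ libraries. The ranges overlapped. The difference was -17.3 points (adjusted p = 0.0371, quasi-binomial model), and the call was lost at a minimum of 20 reads. In WT mice the same cytosine had a mean of 95.5% in CD34− cells and 93.4% in CD34+ cells (adjusted p = 0.882, quasi-binomial model). No single member was called for CD34− minus CD34+ in WT mice (0.0429% of all cytosines) or for PML-RARa minus WT in either fraction (5.78e-05% in each). At an unadjusted p below 0.05 there were 590 member cytosines (7.42%) for PML-RARa minus WT in CD34− cells, beside 8.44% of all cytosines, and 374 (4.70%) in CD34+ cells, beside 5.34%. For CD34− minus CD34+ there were 613 (7.71%) in PML-RARa mice, beside 8.53%, and 444 (5.58%) in WT mice, beside 5.83%.

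For PML-RARa against WT, the smallest p-values of the interval in both fractions came from a window of H2-D1, the class I heavy chain gene. It lies at chr17:35401001-35402000, and its 5 member cytosines stand between 1308 and 1388 bases after the start. Its level in PML-RARa CD34− libraries was 32.3, 31.4, 51.2, 42.3 and 45.8%, against 50, 59.5, 60.8, 56.5 and 62.0% in WT CD34− libraries, so that only PML-RARa replicate 12 reached above the lowest WT library. The difference was -17.2 points, with an unadjusted p = 1.27e-05 and an adjusted p = 0.222 in the quasi-binomial model (0.145 to 1.00 over the alternatives), and was not called. PML-RARa CD34+ libraries had 39.8, 57.4, 36.7, 45.8 and 47.5%, against 50.4, 55.4, 62.6, 57.4 and 64.1% in WT CD34+ libraries, a difference of -12.6 points (adjusted p = 0.870, quasi-binomial model). Here PML-RARa replicate 5 overlapped the WT libraries.

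With the genotype as 1 term over both fractions, added after the data had been seen, the H2-D1 window differed by -14.9 points and just missed the threshold (adjusted p = 0.0586, quasi-binomial model); the term called 0 member windows and 0.000786% of all windows. Within flowcells the difference was -19.4 points on A and -17.8 on B in CD34− cells, and -10.8 on B and -14.3 on D in CD34+ cells. All 5 of its cytosines had lower group means in PML-RARa than in WT cells in both fractions. They stand close together in a window chosen by its p, so this is no separate support. At chr17:35401427, 1388 bases after the start, PML-RARa CD34− libraries had 38.2% (lowest), 44.0% (median) and 53.2% (highest), against 63.2, 67.1 and 71.6% in WT CD34− libraries, with no overlap and -22.7 points (adjusted p = 0.164, quasi-binomial model). In CD34+ cells this cytosine had 48.0, 51.3 and 75.0% in PML-RARa libraries, against 59.0, 62.7 and 65.2% in WT libraries, which overlapped. The H2-D1 promoter itself, with 17 of its CpGs read, was at 0.151%.

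The second class I gene among the smallest p-values was H2-Q6, in the window chr17:35562001-35563000, 206 to 1205 bases after its start, with 27 member cytosines. PML-RARa CD34+ libraries had 6.30, 16.3, 14.9, 9.95 and 10.5%, against 17.2, 12.6, 15.9, 19.9 and 19.5% in WT CD34+ libraries, which overlapped. The difference was -5.41 points (adjusted p = 1.00, quasi-binomial model). In late promyelocytes, PML-RARa libraries had 9.71, 10.2, 7.38, 14.1 and 17.9%, against 17.9, 19.4, 12.6, 15.6 and 19.7% in WT libraries, overlapping as well. Within flowcells it was -0.127 points on B and -7.92 on D in CD34+ cells, and -3.61 on A and -10.9 on B in CD34− cells.

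The single cytosines given here for Neu1, H2-D1 and H2-Q6 were chosen after their values had been seen. At chr17:35562744, 949 bases after the start, PML-RARa CD34− libraries had 49.5, 50 and 53.8% (lowest, median and highest), against 62.9, 75.8 and 79.4% in WT CD34− libraries, a difference of -23.6 points with no overlap (adjusted p = 0.232, quasi-binomial model). In CD34+ cells the same cytosine had 26.7, 37.7 and 78.4% in PML-RARa libraries, against 73.2, 77.6 and 90.5% in WT libraries (-34.6 points, adjusted p = 0.536, quasi-binomial model), where the highest PML-RARa library overlapped the WT range. The neighbouring cytosine 941 bases after the start had 29.2, 38.0 and 66.0% in PML-RARa CD34+ libraries, against 66.2, 76.9 and 83.0% in WT CD34+ libraries, -30.4 points with no overlap (adjusted p = 0.524, quasi-binomial model). None of these was called. Whether reads from other class I copies or alleles add to either class I window was not tested.

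**Figure D5:**
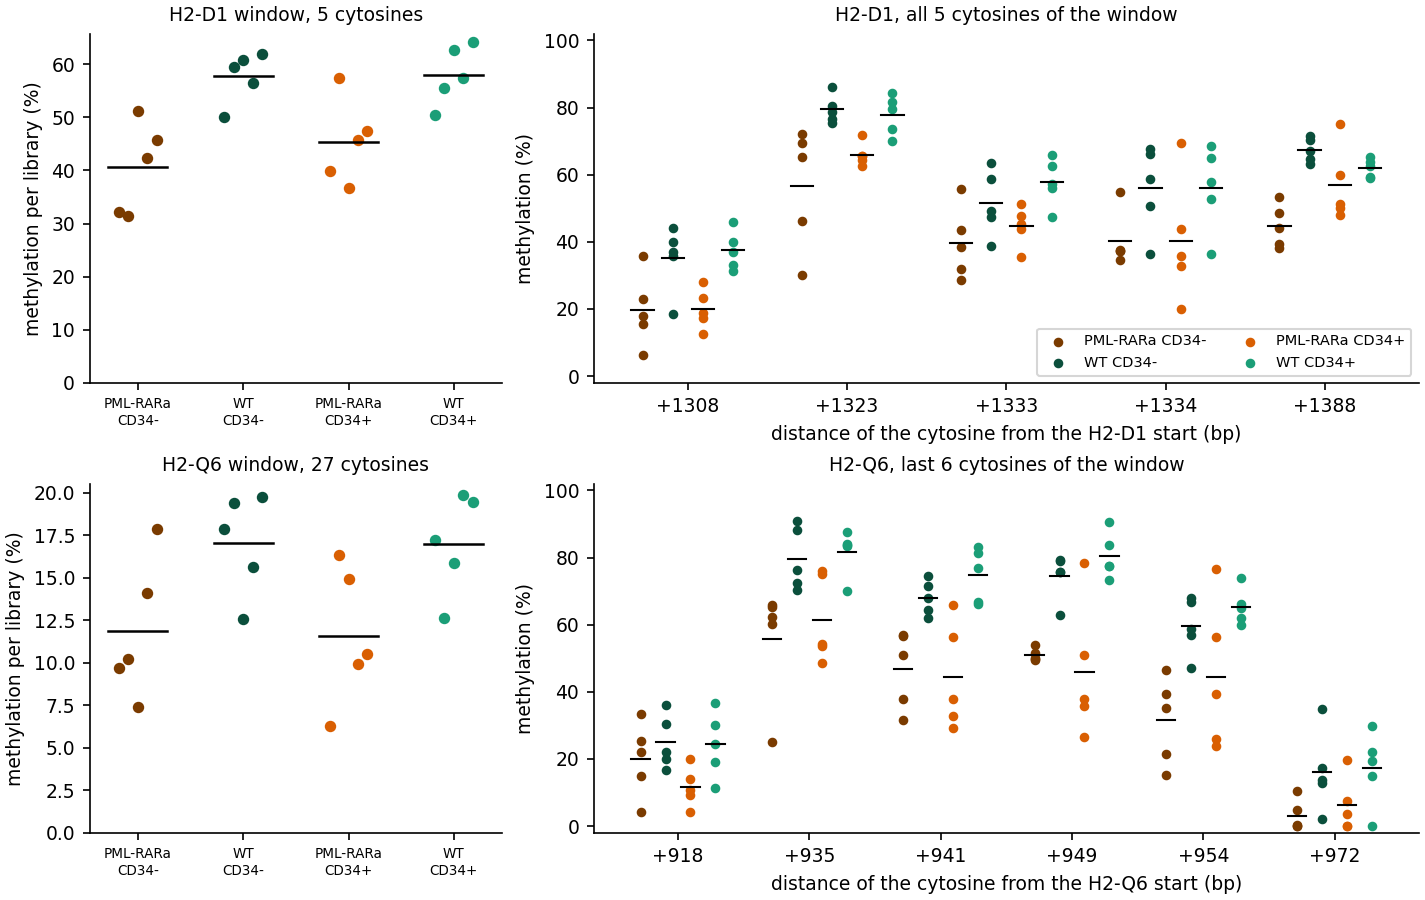
Methylation in percent (y axes) of the H2-D1 and H2-Q6 windows in each library (points, left) by group (x axis), and of single cytosines of these windows by distance from the start in bases (right), with group means as bars, n = 5 per group. Window means are lower in PML-RARa than in WT cells in both fractions at both genes, with differences of -17.2 and -12.6 points at H2-D1 in CD34− and CD34+ cells, and libraries of the genotypes overlap.

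The remaining windows named by their p-values were not called either. Before the start of Zbtb12, a zinc finger gene, the window chr17:35030001-35031000 had 25.1, 13.5, 24.5, 24.0 and 17.2% in PML-RARa CD34− libraries, against 45.0, 33.5, 34.0, 31.2 and 35.1% in WT CD34− libraries. These did not overlap, and the difference was -14.9 points (adjusted p = 0.446, quasi-binomial model). PML-RARa CD34+ cells averaged 37.0% there, so CD34− minus CD34+ in PML-RARa mice was -16.2 points (adjusted p = 0.221, quasi-binomial model). The window chr17:35949001-35950000, at -9657 to -8658 from the start of Ier3, went the other way, with 98.5% ± 2.61 in PML-RARa CD34− cells, 90.3% ± 6.14 in WT CD34− cells, 87.6% ± 5.12 in PML-RARa CD34+ cells and 89.5% ± 6.67 in WT CD34+ cells (SD, n = 4 in PML-RARa CD34− cells, where replicate 6 had no value, and n = 5 in the others). PML-RARa minus WT in CD34− cells was 8.20 points there (adjusted p = 0.490) and CD34− minus CD34+ in PML-RARa mice 10.8 points (adjusted p = 0.197), both by the quasi-binomial model. It also had the smallest p of the interaction, 10.1 points (adjusted p = 0.958, quasi-binomial model).

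The H2-Q6 promoter window, chr17:35561001-35562000, was second by p among the positive interactions, at 3.73 points (adjusted p = 0.958, quasi-binomial model), with 2.85% ± 3.16 in PML-RARa CD34− cells, 0.878% ± 0.949 in WT CD34− cells, 0.254% ± 0.114 in PML-RARa CD34+ cells and 2.01% ± 1.23 in WT CD34+ cells (SD, n = 5 each). The spread of PML-RARa CD34− libraries was larger than their mean. Several other windows named by p differed by less than 1 point: Cd320, Zbtb22, Tubb5, Vars2 and Rgl2 had differences of -0.560, -0.210, 0.935, 0.861 and 0.406 points in the comparisons that named them, and none had an adjusted p below 0.05 in the quasi-binomial model. Around the start of Vwa7, CD34− minus CD34+ in PML-RARa mice was 9.83 points (56.4% ± 4.12 against 46.6% ± 6.16, SD, n = 5 each, adjusted p = 0.393, quasi-binomial model).

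Total coverage per library, summed over cytosines, lay between 83631324 and 362881291, a read counting once for each cytosine it covers, and the median coverage of cytosines in the interval between 33 and 167 reads. In 5 libraries the intermediate windows outside the interval lay, in the median, more than 6 points from the other libraries of their group: PML-RARa CD34− replicates 6 (7.19) and 12 (6.10), PML-RARa CD34+ replicates 5 (7.55) and 11 (8.5), and WT CD34+ replicate 1 (7.75). Without these 5 libraries, a setting added after the data had been seen, 3 member windows were called between the WT fractions. The Neu1 windows were at -38.2 points (adjusted p = 0.00351) and -13.7 points (adjusted p = 0.0319, quasi-binomial model). The third, beginning at chr17:34037001, was at -16.2 points (adjusted p = 0.0152, quasi-binomial model). The only WT library left out, CD34+ replicate 1, had 0%, 84.2% and 0% in these windows. Each level is below its group mean, so leaving this library out widens the differences. How many of all windows this fit called is not given here.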

How the data were processed

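Methylation was read by ERRBS in 20 libraries, 5 for each genotype and fraction, grouped by the labels. The submitters' processing notes name CASAVA 1.8.2, Bismark and mm9; trimming, conversion rate and strand handling are not given in the sources used here. Each deposited table gives, per the file headers, the count of reads covering each CpG cytosine (coverage) and the percent of them with C and with T; no listed cytosine had under 10 reads. Methylated reads were recovered as coverage times percent C, whole at all cytosines within rounding. The tables hold no molecular identifiers, so depth gives counting error only.

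Reads were summed per 1 kb window, a library with fewer than 3 of a window's cytosines being left out of it. The quasi-binomial model had a term per group, a Pearson overdispersion shrunk over windows with the method of limma's squeezeVar (3.46 prior degrees of freedom, median 8.99) and held at 1 or above, a two-sided deviance F test and Benjamini-Hochberg adjustment over all windows or cytosines of chromosomes 1 to 19. It was tested on simulated data with independent libraries, and the outcome is not given here. Library means were compared by exact permutation, two-sided. Python 3.11.15, numpy 2.4.6, scipy 1.17.1, R 4.3.3 and limma 3.58.1 were used. Alternatives were other coverage minima, window sizes, limma on log odds (pseudocount 1), flowcell as a factor, within-flowcell values, each library left out and, added later, couples of consecutive title numbers as a block. Named windows were all called ones and, per comparison, 3 higher and 3 lower ones of smallest p; genes were listed by role. Members, lists and tests were chosen with earlier results of these data known.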

Additional observations from a re-analysis of the deposited data

Results flagged for a closer look

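In 16 of 116 groups of 4 or 5 libraries with a value, over the named windows and the library means, 1 library stood far from the others. At an assumed rate of 1 in 20 groups, 5.8 would be singled out. That rate cannot serve as the chance rate here, because in several of these groups every other library was fully unmethylated. There, methylated reads in 1 library alone single it out, however few they are. Whether the 16 exceed chance can thus not be decided from these counts. Windows are given by their first base on chromosome 17.

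In 9 of the 16 the level was below 6%. PML-RARa CD34+ replicate 19 had 0.0730% at 33980001 (Cd320), where the other 4 were at 0. PML-RARa CD34− replicate 4 had 0.105% there, with the others at 0, and 5.32% at 34342001, with the others between 0 and 1.46%. PML-RARa CD34− replicate 6 had 0.426% at 34037001, PML-RARa CD34− replicate 14 had 3.92% at 35900001, WT CD34− replicate 10 had 1.89% at 35070001 (Neu1) and WT CD34− replicate 16 had 0.0907% at 35973001 (Tubb5), each with the others at 0. PML-RARa CD34+ replicate 3 had 0.223% at 34067001 (Rgl2), and WT CD34+ replicate 15 had 0.566% at 35810001 (Vars2).

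At higher levels, PML-RARa CD34+ replicate 13 had 76.1% at 35071001 (Neu1), with the others between 83.7 and 85.2%. PML-RARa CD34− replicate 14 had 94.6% at 35949001 (Ier3), with the other 3 libraries that had a value between 99.3 and 100%. WT CD34− replicate 16 had 40.8% at 34753001 (others 26.2 to 27.98%), WT CD34− replicate 18 had 80% at 34908001 (others 86.6 to 89.1%), and WT CD34− replicate 2 had 45.0% at 35030001 (Zbtb12, others 31.2 to 35.1%). PML-RARa CD34− replicate 20 had the highest interval mean of its group, 24.8% (others 24.2 to 24.3%), and the highest mean of intermediate windows, 57.3% (others 54.9 to 55.2%).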

How the results depend on the processing

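Depth limits single cytosines, with a median of 33 reads in the shallowest library. The title numbers are all different but run in couples, and the labels do not say that a couple shares a mouse. Over 15784 intermediate windows outside the interval, deviations from the group means correlated between -0.0651 and 0.258 within the 10 couples. The correlation was over 0.1 in 3 couples, and 11 of 20 libraries correlated best with their own couple. How many would do so without pairing was not worked out, so these values do not decide whether couples are pairs. The main tests used no pairing because the labels give none. Couples as a block were an alternative chosen after seeing the data. With them the quasi-binomial model called 1 member window in WT mice and 1 in PML-RARa mice, in both the first Neu1 window. The model called 0 member windows for the interaction and 2 for both genotypes together. Of all windows it called 440 (0.346%) in WT mice, 61 (0.0479%) in PML-RARa mice, 1 (0.000786%) for the interaction and 656 (0.515%) for both genotypes together. The interval mean was lower in the CD34− library of all 10 couples, with p = 0.00195 by exact sign flips (adjusted p = 0.00391 over 4 such tests, adjusted p = 0.00391 for high, 0.00781 for intermediate and 0.0293 for low windows), and with the rest subtracted in 5 of 10 (p = 0.885, exact sign flips). Per genotype 5 couples cannot go below 0.0625. Where a call was lost or a sign turned, the cause was not tested. With the rest of chromosomes 1 to 19 subtracted, CD34− minus CD34+ in WT mice turned positive for the interval (0.0832 points), intermediate (0.932) and high windows (0.129), as did PML-RARa minus WT in CD34+ cells for intermediate windows (0.171). The 6 called class means were no longer called under 3 settings, given in the order low windows PML-RARa minus WT CD34+, intermediate PML-RARa minus WT CD34−, intermediate CD34− minus CD34+ PML-RARa, high PML-RARa minus WT CD34−, and high CD34− minus CD34+ in PML-RARa and in WT mice. Weighted by reads they were -0.163, -0.0999, -0.721, -0.554, -0.593 and -0.727 points. At a minimum of 20 reads they were -0.184, -2.21, -2.81, -0.422, -0.682 and -0.904. Minus the rest, the first 5 were -0.264, -1.74, -0.983, -0.617 and -0.278. Without the 5 libraries of high scatter, a setting added after seeing the data, they were -0.428, -1.70, -1.55, -0.577, -0.706 and -0.692, with no sign turned and none called; the 3 against 3 PML-RARa libraries then left cannot go below an unadjusted permutation p of 0.1, so this says nothing on stability there. Within flowcell D, CD34− minus CD34+ in WT mice was -0.0945 for low and -0.314 for high windows, and PML-RARa minus WT in CD34+ cells was -0.146 for high windows. The 2 windows called in WT mice were 1 at a minimum of 20 reads, 1 at 500 bp, 0 at 2 kb, 0 with the 2 WT groups alone and 0 by limma. The shares of all windows called in these settings are not given here, so a loss of calls everywhere cannot be told from a loss at these windows. The cytosine called in PML-RARa mice was lost at 20 reads (0 called), and with no minimum difference 1 cytosine was called in WT mice.

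With 1 library left out at a time, interval means ranged from -0.366 to -0.195 points (PML-RARa minus WT, CD34−), -0.289 to -0.176 (PML-RARa minus WT, CD34+), -0.475 to -0.326 (CD34− minus CD34+, PML-RARa) and -0.409 to -0.286 (the same, WT). In this order, high windows ranged from -0.829 to -0.580, -0.749 to -0.480, -1.04 to -0.791 and -0.960 to -0.692. Intermediate windows ranged from -2.39 to -1.56, -1.17 to -0.511, -2.62 to -1.92 and -1.41 to -0.704. Low windows ranged from -0.221 to 0.0838, -0.434 to -0.308, -0.207 to -0.0813 and -0.599 to -0.293. The member windows called in WT mice ranged from 0 to 3. How many of all windows these fits called is not given here, so this range has no background beside it. No named window changed sign with 1 library left out, at other coverage minima or without the libraries of high scatter. With limma, flowcell as a factor, the compared groups alone or couples as a block, the difference was that of the main fit. Its sign could not change there. Signs were not compared at other window sizes.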

Other observations

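Upstream of Atf6b, a gene of the unfolded protein response, the window chr17:34782001-34783000 averaged 17.4% in PML-RARa CD34− cells and 27.4% in WT CD34− cells, and 31.9% in PML-RARa CD34+ cells and 44.2% in WT CD34+ cells. With the fraction as 1 term over both genotypes, CD34− minus CD34+ was -15.7 points (adjusted p = 0.153, quasi-binomial model), which was not called. The window was chosen after its values were seen, from those with the smallest p of that term.

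At chr17:34049001-34050000, 2455 to 3454 bases after the placed Daxx start, PML-RARa CD34− cells averaged 80.3% and WT CD34− cells 86.3%, and PML-RARa CD34+ cells averaged 84.7% and WT CD34+ cells 92.9%. Over both fractions PML-RARa minus WT was -7.09 points (adjusted p = 0.556), and over both genotypes CD34− minus CD34+ was -5.53 points (adjusted p = 0.126), both by the quasi-binomial model.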
